A study of Mus musculus with 8 samples.

Results

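*Pgf*, *Adm*, *Efnb2* and *Angpt2*, which encode angiogenic ligands other than VEGF-A, were compared between HM-1 tumours of mice that received anti-VEGF antibody and HM-1 tumours of mice that received rat IgG control. The 4 genes were chosen by name, with earlier results of these data known. They were among the 11667 genes that the arrays measured under a single gene symbol, and 1 probe set measured each of them. HM-1 cells, an established ovarian cancer line of the mouse, had been placed under the skin of the right flank of B6C3F1 hybrid mice. Every mouse of both groups carried the same cells and received intraperitoneal antibody from day 3, as the labels give it, until its tumour measured 1.5 cm across its long diameter. There were 4 anti-VEGF tumours and 4 control tumours, each with 1 array. Whole tumours of 1 line were measured, so fewer cells of a type and less RNA per cell cannot be told apart. The labels used here give no age of the mice and do not say how long each tumour took to reach its size, and p-values measure only the spread between these samples.

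In growing vessels, VEGF-A acts on endothelial cells mainly through VEGFR2, which *Kdr* encodes, while placental growth factor, the product of *Pgf*, binds VEGFR1, the product of *Flt1*. Adrenomedullin, a vasodilator peptide encoded by *Adm*, signals through the calcitonin receptor-like receptor joined to a RAMP protein, and its gene is a well known target of the hypoxia-inducible factor HIF. Ephrin-B2, encoded by *Efnb2*, is a membrane-bound ligand of arterial endothelium and mural cells that engages EphB receptors, of which EphB4 marks veins, and angiopoietin-2, encoded by *Angpt2*, is released by endothelial cells and competes with angiopoietin-1 at the receptor Tie2, the product of *Tek*.

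All 4 ligand genes were measured at a higher level with anti-VEGF antibody, and the 250 bases before their RefSeq starts (build GRCm38.p6) were therefore searched for the core of the HIF response element. The letters searched were ACGTG and GCGTG on both strands, so that a match can also read CACGT or CACGC, and ACGTG and CACGT overlap each other in CACGTG. RefSeq starts were found for 3 of the 4 genes, not for *Angpt2*. *Adm* (chr7:110627657-110629820) had 2 matches, whose first bases lay 90 and 54 bases before its start. *Pgf* (chr12:85166637-85177785) had 1 match, 124 bases before the more upstream of its listed starts, and 0 before the other. Both windows searched for *Pgf* lay inside the gene range given here, downstream of its 5′ end. *Efnb2* (chr8:8617235-8661242) had 0, and *Angpt2* lies on the same chromosome at chr8:18690263-18741562. The sequences are given 5′ to 3′ on the strand of the gene, with the matches in capitals, for chr7:110627407-110627656 (plus strand), chr12:85177314-85177563 (minus strand) and chr8:8661243-8661492 (minus strand).
*Adm*: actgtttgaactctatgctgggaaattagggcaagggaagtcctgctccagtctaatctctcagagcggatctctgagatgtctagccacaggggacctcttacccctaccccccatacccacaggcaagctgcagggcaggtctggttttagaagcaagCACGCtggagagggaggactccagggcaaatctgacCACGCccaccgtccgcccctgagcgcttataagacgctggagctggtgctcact
*Pgf*: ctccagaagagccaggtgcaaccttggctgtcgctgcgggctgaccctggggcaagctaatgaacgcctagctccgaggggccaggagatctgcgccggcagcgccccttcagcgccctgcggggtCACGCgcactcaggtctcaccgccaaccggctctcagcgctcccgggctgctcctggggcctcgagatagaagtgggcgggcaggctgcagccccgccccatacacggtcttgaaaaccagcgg
*Efnb2*: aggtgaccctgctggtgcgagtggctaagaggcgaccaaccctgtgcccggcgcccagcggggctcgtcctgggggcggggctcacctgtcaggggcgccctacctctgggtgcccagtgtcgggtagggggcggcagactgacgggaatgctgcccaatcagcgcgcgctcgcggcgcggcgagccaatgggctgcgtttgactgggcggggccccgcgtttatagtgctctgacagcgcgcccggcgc
Of all 32851 starts in the RefSeq table, 38.6% had such a match in their 250 bases. A match describes the letters only and is not evidence of binding.

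The values below are log2 expression, on which a difference of 1 is a 2-fold change, and differences are anti-VEGF minus control. The arrays of the groups differed in their whole distribution, although the normalisation named for the deposited values includes a step that evens it out at the probe level, and the cause is not known. The SD over genes was 1.99 to 2.08 on the anti-VEGF arrays and 1.12 to 1.66 on the control arrays, with control array 3 the narrowest. Genes in the highest tertile of level had a median difference of 0.60, those in the middle tertile -0.44 and those in the lowest -1.07, and limma called 2232 genes (19.1%) higher and 5437 (46.6%) lower at an adjusted p under 0.05. After the arrays had been quantile-normalised again, 872 (7.47%) were called higher and 519 (4.45%) lower. Markers of pancreatic acinar cells, which are no part of the labelled tissue, were lower for 25 of 25 measured genes, with a mean level of 4.14 to 9.14 on the anti-VEGF arrays and 8.88 to 10.4 on the control arrays. The 9 measured markers of epithelial and HM-1 tumour cells averaged 7.08 to 7.45 on the anti-VEGF arrays and 6.80 to 7.37 on the control arrays, with *Msln*, *Krt8*, *Krt18* and *Krt19* called higher and *Cldn3* and *Cldn7* lower. After quantile normalisation only *Krt8* was called higher and *Cldn3* and *Cldn7* lower. After cyclic loess, another rescaling of the arrays, 0 were called higher and 2 lower.

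**Figure D1:**
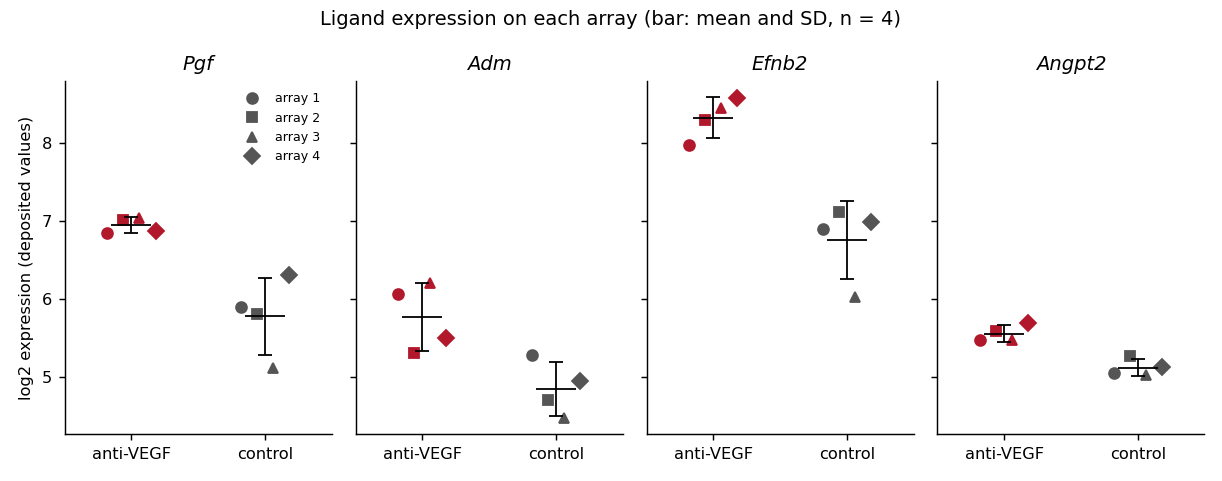
Log2 expression of the 4 ligand genes (vertical axis, deposited values) on each anti-VEGF array (red, left) and each control array (grey, right), with the mean and SD of each group of 4 and a symbol for each array number. Every red point lies above every grey point of its panel, by 0.55 for *Pgf*, 0.026 for *Adm*, 0.86 for *Efnb2* and 0.20 for *Angpt2* between the nearest points.

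*Pgf*, the placental growth factor gene, was higher with anti-VEGF antibody by 2.25-fold. Its log2 expression was 6.85, 7.02, 7.05 and 6.88 on anti-VEGF arrays 1 to 4, against 5.90, 5.81, 5.11 and 6.30 on control arrays 1 to 4. The anti-VEGF tumours were nearly alike, with a range of 0.19, whereas the controls spread over 1.19, or over 0.49 without control array 3. The highest control, array 4, stayed 0.55 below the lowest anti-VEGF array. The means were 6.95 ± 0.10 with anti-VEGF antibody and 5.78 ± 0.50 in controls (SD, n = 4 each), a difference of 1.17 (standard error 0.24, 95% confidence interval 0.65 to 1.69, adjusted p = 0.00265 from limma). A two-sided exact permutation test gave p = 0.0286, the smallest value that 4 arrays against 4 allow, and it gave the same for the other ligands. After quantile normalisation the difference was 0.86 and no longer passed (adjusted p = 0.0513 from limma, within 0.000252 to 0.0949 over 20 alternatives).

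Among the 2 other measured VEGF ligands, *Vegfc*, which drives lymphatic growth, was 6.00 to 6.58 on the anti-VEGF arrays and 4.91 to 6.00 on the control arrays. It rose by 0.74 (adjusted p = 0.0248 from limma), with anti-VEGF array 1 just below the highest control, but did not pass without anti-VEGF array 2 (0.68, adjusted p = 0.0685) or 3 (0.66, 0.0745), or after quantile normalisation (0.62, 0.188). *Vegfd*, another lymphatic factor, differed by 0.10 (95% confidence interval -0.25 to 0.45), and by 0.51 after centring, where it passed (adjusted p = 0.0217). *Vegfa*, *Vegfb* and the receptor gene *Flt1* were not analysed here. Of the 2 measured receptors of the family, *Kdr* had 4.50 to 5.30 on the anti-VEGF arrays and 4.99 to 5.30 on the control arrays, a difference of -0.19 (95% confidence interval -0.63 to 0.26), which turned to 0.083 after quantile normalisation. *Flt4*, the VEGF-C receptor of lymphatic vessels, fell by 0.56 (adjusted p = 0.0117 from limma) and was below every control on every anti-VEGF array, but did not pass after quantile normalisation (-0.42, adjusted p = 0.0505) or centring (-0.14, 0.369).

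*Adm*, the adrenomedullin gene, was 1.90-fold higher with anti-VEGF antibody, with the widest spread among the treated tumours of the 4 ligands. Its log2 expression was 6.07, 5.30, 6.20 and 5.50 on anti-VEGF arrays 1 to 4, against 5.28, 4.70, 4.47 and 4.94 on control arrays 1 to 4. Anti-VEGF arrays 1 and 3 stood high and 2 and 4 low, and array 2 cleared control array 1, the highest of the controls, by only 0.026. The means were 5.77 ± 0.43 with anti-VEGF antibody and 4.85 ± 0.35 in controls (SD, n = 4 each), a difference of 0.92 (standard error 0.25, 95% confidence interval 0.37 to 1.48, adjusted p = 0.00936 from limma). The groups lay further apart after quantile normalisation, where *Adm* was 5.38 to 6.03 on the anti-VEGF arrays and 3.88 to 4.92 on the control arrays, a difference of 1.16 (adjusted p = 0.0280 from limma).

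None of the 4 other measured genes of the adrenomedullin list was called higher, and 3 were called lower, beside 46.6% of all genes. *Ramp2*, whose product forms an adrenomedullin receptor, was 4.67 to 4.91 on the anti-VEGF arrays and 4.87 to 5.52 on the control arrays, and fell by 0.47 (adjusted p = 0.0387 from limma). This call was lost in 7 of the 8 fits that left out 1 array (adjusted p up to 0.110), all but that without control array 3, and after quantile normalisation (-0.15, 0.641). *Ramp3*, its counterpart in a second adrenomedullin receptor, was 5.36 to 5.74 on the anti-VEGF arrays and 5.71 to 6.44 on the control arrays, a difference of -0.42 that did not pass (adjusted p = 0.0787) but did without control array 3 (-0.52, 0.0305) and after quantile normalisation (-0.70, 0.0452). *Adm2*, which encodes the related peptide intermedin, fell by 0.64 (adjusted p = 0.0359 from limma), a call that, of the 8 fits without 1 array, only those without control array 3 or 4 kept (adjusted p 0.00607 to 0.0910). It did not pass after quantile normalisation (-0.35, 0.356). *Calcrl*, the receptor gene itself, was not analysed here.

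*Efnb2*, the ephrin-B2 gene, had the largest difference of the 4 ligands on the deposited scale, at 2.98-fold. Its log2 expression was 7.97, 8.31, 8.46 and 8.58 on anti-VEGF arrays 1 to 4, against 6.89, 7.12, 6.02 and 6.99 on control arrays 1 to 4. Control array 3 was far below the other controls, which lay within 0.22 of each other, and the lowest anti-VEGF array was 0.86 above the highest control. The means were 8.33 ± 0.26 with anti-VEGF antibody and 6.76 ± 0.50 in controls (SD, n = 4 each), a difference of 1.57 (standard error 0.25, 95% confidence interval 1.01 to 2.14, adjusted p = 0.00132 from limma). Without control array 3 it was 1.33. After quantile normalisation control array 3 no longer stood apart, *Efnb2* was 7.61 to 8.06 on the anti-VEGF arrays and 7.01 to 7.31 on the control arrays, and the difference was 0.74 (adjusted p = 0.0214 from limma).

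Neither of the other B-class ephrins was called higher. *Efnb1* differed by -0.14 (95% confidence interval -0.51 to 0.24), a value that became 0.28 when each array was centred on its median. *Efnb3* was 5.53 to 6.03 on the anti-VEGF arrays and 5.86 to 6.80 on the control arrays and fell by 0.63 (adjusted p = 0.0298 from limma), a call lost in 5 of the 8 fits that left out 1 array (without anti-VEGF array 2, 3 or 4 or control array 1 or 4, adjusted p up to 0.0883). After quantile normalisation *Efnb3* was lower by more (-1.02, adjusted p = 0.0170), whereas centring each array on its median ended the call (-0.22, 0.367). Among the A-class ligands, *Efna1* rose by 0.86 (adjusted p = 0.0156 from limma), with 6.67 to 6.78 on the anti-VEGF arrays and 4.99 to 6.25 on the control arrays, and had 0.57 after quantile normalisation (adjusted p = 0.249).

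Of the receptors, *Ephb4*, the venous partner of ephrin-B2, was 7.17 to 7.40 on the anti-VEGF arrays and 6.13 to 7.11 on the control arrays. The groups did not overlap, yet the difference of 0.52 did not pass (adjusted p = 0.0617 from limma). It passed without control array 1 (0.64, 0.0392) or 4 (0.64, 0.0343), with array weights (0.42, 0.0293) and after centring each array on its median (0.94, 0.00687), and it turned to -0.22 after quantile normalisation. *Ephb1* fell by 0.82 (adjusted p = 0.00635 from limma), with 3.76 to 4.19 on the anti-VEGF arrays and 4.51 to 5.27 on the control arrays, a call lost after quantile normalisation (-0.25, adjusted p = 0.307). *Ephb3* differed by -0.30 (95% confidence interval -0.69 to 0.08), with the sign turned when arrays were centred (0.11), and *Ephb6*, whose kinase domain is inactive, by 0.47 (-0.022 to 0.95). Over the 13 measured ephrins and Eph receptors, *Efnb2* included, 2 were called higher and 5 lower, beside 19.1% and 46.6% of all genes, with a median difference of -0.30 beside -0.44. After quantile normalisation 1 was called higher, *Efnb2*, and 1 lower, *Efnb3*.

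*Angpt2*, the angiopoietin-2 gene, had the smallest difference of the 4 ligands, at 1.36-fold, and the tightest control group. Its log2 expression was 5.47, 5.59, 5.47 and 5.70 on anti-VEGF arrays 1 to 4, against 5.05, 5.26, 5.02 and 5.12 on control arrays 1 to 4. Neither group held an array that stood apart, and control array 2, the highest control, was 0.20 below the lowest anti-VEGF array. The means were 5.55 ± 0.11 with anti-VEGF antibody and 5.11 ± 0.11 in controls (SD, n = 4 each), a difference of 0.44 (standard error 0.15, 95% confidence interval 0.10 to 0.78, adjusted p = 0.0267 from limma). The call was lost without anti-VEGF array 2 (0.43, adjusted p = 0.0804), 3 (0.47, 0.0571) or 4 (0.39, 0.0975). After quantile normalisation the difference was 0.59 (adjusted p = 0.0378 from limma).

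*Angpt1*, the ligand that stabilises vessels through Tie2, was 5.01, 5.82, 6.44 and 5.75 on anti-VEGF arrays 1 to 4 and 4.68, 5.39, 4.13 and 4.78 on control arrays 1 to 4. Anti-VEGF array 1 lay below control array 2, so the groups overlapped, and the difference was 1.01 (standard error 0.33, adjusted p = 0.0195 from limma), which did not pass without anti-VEGF array 3 (0.78, 0.0618) or after quantile normalisation (1.29, 0.0769). *Angpt4*, another Tie2 ligand, differed by -0.19 (95% confidence interval -0.55 to 0.17) and by 0.0049 after quantile normalisation. *Tie1*, the orphan relative of Tie2, had 5.62 to 5.78 on the anti-VEGF arrays and 5.14 to 5.88 on the control arrays, a difference of 0.043 (95% confidence interval -0.38 to 0.47) that was -0.13 without control array 3. *Tek* was not analysed here. Of the 8 measured angiopoietins, angiopoietin-like genes and Tie receptors, 3 were called higher and 1 lower, beside 19.1% and 46.6% of all genes, with a median difference of 0.0010, and after quantile normalisation only *Angpt2* was called higher and 0 lower. After cyclic loess, another rescaling of the arrays, 2 were called higher, *Angpt2* and *Angpt1* (1.13, adjusted p = 0.0396 from limma), and 0 lower.

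**Figure D2:**
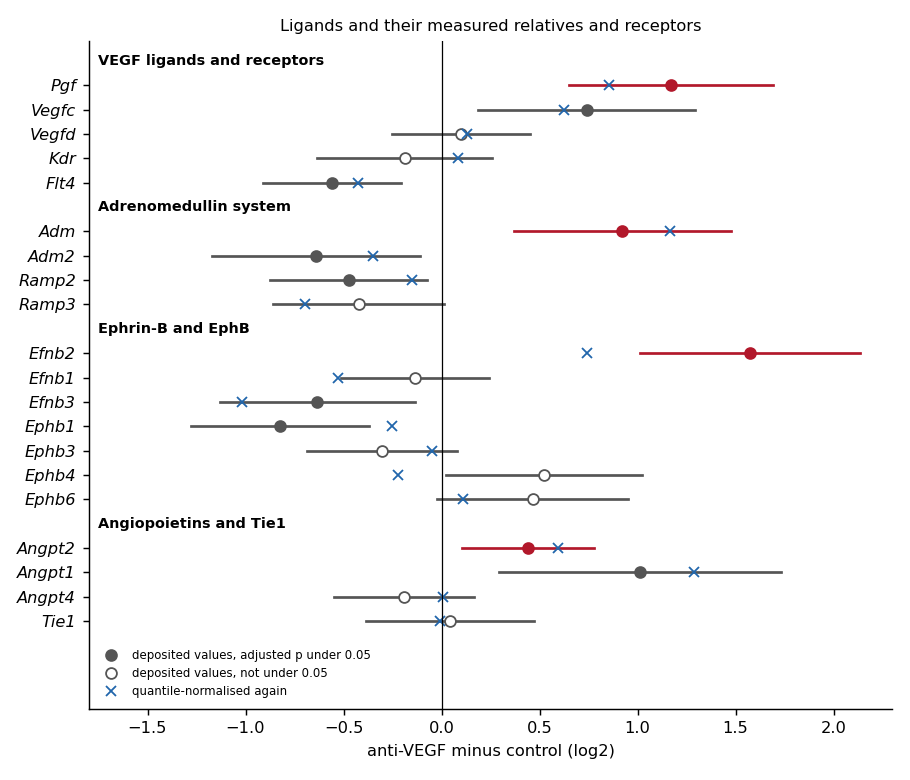
Differences between anti-VEGF and control arrays (log2, horizontal axis) of the 4 ligands (red) and of their measured relatives and receptors (grey), with 95% confidence intervals, filled where the adjusted p was under 0.05 and with a blue cross for the value after quantile normalisation. The ligands lie at 1.17, 0.92, 1.57 and 0.44, *Vegfc* and *Angpt1* also lie to the right at 0.74 and 1.01, and the crosses of *Kdr*, *Ephb4*, *Angpt4* and *Tie1* lie on the other side of 0 from their points.

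The 4 ligands were all called higher, beside 19.1% of all genes, and in all 4 the groups did not overlap, beside 19.8% of genes in which every anti-VEGF array was above every control array and 41.5% in which every one was below. The ligands were chosen with earlier results of these data known, so these shares are a background and not a test. Since bright genes as a whole were higher with anti-VEGF antibody, each ligand was set beside the genes within 0.25 of its own mean level. *Efnb2* and *Pgf* belonged to the highest tertile, where a call was common. Of 389 genes at the level of *Efnb2* 71.0% were called higher, with a median difference of 0.98, and of 874 genes at the level of *Pgf* 50.7% were, with a median of 0.54. *Adm* and *Angpt2* belonged to the middle tertile, where a higher call was less frequent, at 14.3% of 1177 genes for *Adm* (median difference -0.18) and 15.0% of 1183 genes for *Angpt2* (median -0.17). Of the genes at the level of *Pgf* 86.50% had a lower difference than *Pgf* itself, and 86.89% did for *Efnb2*. The share was 94.99% for *Adm* and 82.59% for *Angpt2*, so each level also held other genes that rose at least as much. Relative to the median of the genes of their own level, the ligands were higher by 0.63 for *Pgf*, 1.10 for *Adm*, 0.60 for *Efnb2* and 0.61 for *Angpt2*. Measured so, the order differs from that of the deposited values, with *Adm* first, and differences between the ligands were not tested.

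**Figure D3:**
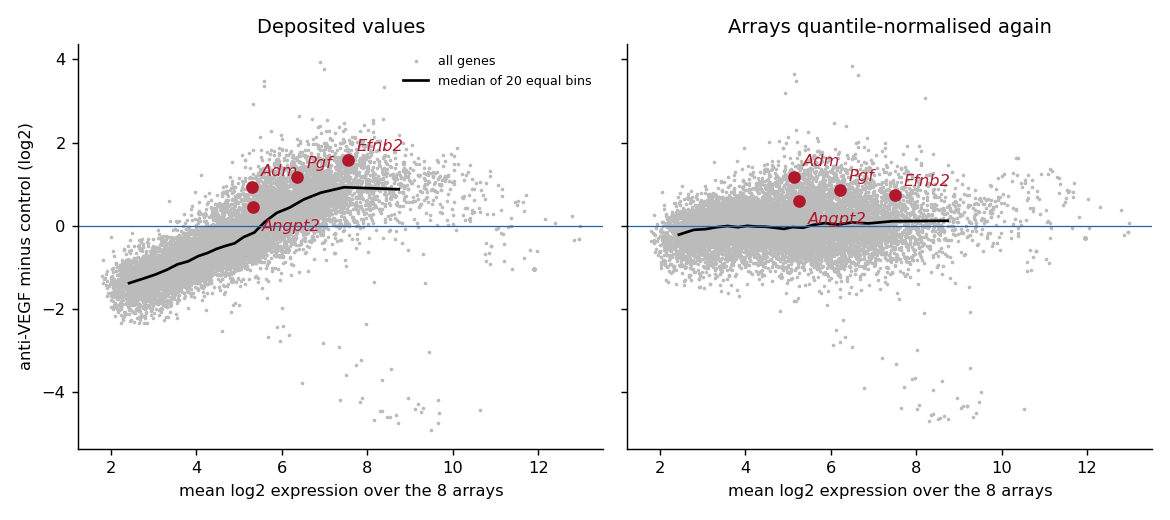
Difference between anti-VEGF and control arrays (log2, vertical axis) against mean log2 expression over the 8 arrays (horizontal axis) for all genes (grey) and the 4 ligands (red), with a line through the medians of 20 bins of equal size, for the deposited values (left) and after quantile normalisation (right). On the left the line climbs with level and the ligands lie above it, and on the right it runs close to 0 with *Adm* at 1.16, *Pgf* at 0.86, *Efnb2* at 0.74 and *Angpt2* at 0.59.

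The rank of each ligand among the genes of its own array, which no monotone rescaling of an array changes, also separated the groups. *Pgf* was at or above 82.5 to 84.6% of genes on the anti-VEGF arrays and 57.0 to 79.4% on the control arrays. *Adm* was at or above 63.0 to 74.5% on the anti-VEGF arrays and 28.8 to 53.3% on the control arrays. *Efnb2* was at or above 93.1 to 95.3% of genes on the anti-VEGF arrays and 88.1 to 91.0% on the control arrays, and *Angpt2* was at or above 64.0 to 67.7% on the anti-VEGF arrays and 46.6 to 59.0% on the control arrays. After quantile normalisation, cyclic loess or scaling of each array to a common median and spread, the groups remained apart in all 4 ligands, which was so for 13.5, 13.9 and 13.8% of all genes. Cyclic loess gave 0.65 for *Pgf* (adjusted p = 0.00957 from limma), 1.01 for *Adm* (0.0115), 0.66 for *Efnb2* (0.0129) and 0.51 for *Angpt2* (0.0241), beside 11.5% of genes called higher and 9.51% called lower.

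Anti-VEGF array 1 had an acinar level of 9.14, above control array 3 (8.88) and below the other controls, and on that array each of the 4 ligands was above every control. Among the anti-VEGF arrays it had the lowest value of *Pgf* (6.85), *Efnb2* (7.97) and *Angpt2* (5.465), but not of *Adm* (6.07). This is 1 array, and on the others acinar level and treatment went together, so their parts cannot be told apart. When the acinar level was added to the model as a covariate, the differences were 1.24 for *Pgf* (95% confidence interval 0.33 to 2.14), 1.30 for *Adm* (0.40 to 2.20), 1.50 for *Efnb2* (0.53 to 2.48) and 0.41 for *Angpt2* (-0.16 to 0.99). In that fit limma called 0 of the 11667 genes in either direction after adjustment (1576 higher and 2566 lower at an unadjusted p under 0.05), and the adjusted p of the ligands was 0.0895 to 0.25. Endothelial markers, which stand for a source of *Angpt2* and *Efnb2*, had a mean level of 5.06 to 5.32 on the anti-VEGF arrays and 5.22 to 5.46 on the control arrays, with *Pecam1*, *Flt1* and *Tek* not analysed here. Of 23 measured, 1 was called higher, beside 19.1% of all genes, and 4 were called lower, beside 46.6%. The 1 called higher was *Sele*, an adhesion molecule of activated endothelium, which rose by 1.21. Those that fell were *Sox17*, *Tal1*, the arterial connexin gene *Gja4* (by 1.11) and *Esm1*, a tip cell gene (by 0.94; adjusted p of *Sele*, *Gja4* and *Esm1* 0.00143, 0.00134 and 0.00217 from limma). After quantile normalisation *Sele* (1.22) and *Gja4* (-1.66) still passed and *Esm1* did not (-0.15, adjusted p = 0.431). With the endothelial level as a covariate the ligands differed by 1.32 for *Pgf* (adjusted p = 0.0100), 0.82 for *Adm* (0.0727), 2.06 for *Efnb2* (0.00403) and 0.58 for *Angpt2* (0.0449). Markers of macrophages (8 of 12 called higher, 1 lower) and neutrophils (6 of 11 higher, 2 lower) had higher mean levels, of 7.61 to 8.08 and 5.34 to 6.12 on the anti-VEGF arrays and 6.34 to 7.36 and 4.93 to 5.28 on the control arrays, and their part in the result was not tested. Of all genes 19.1% were called higher, and 51.3% of the highest tertile. After quantile normalisation 2 of the 12 macrophage markers were called higher and 0 lower, and 5 of the 11 neutrophil markers higher and 1 lower, with median differences of 0.33 and 1.16.

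**Figure D4:**
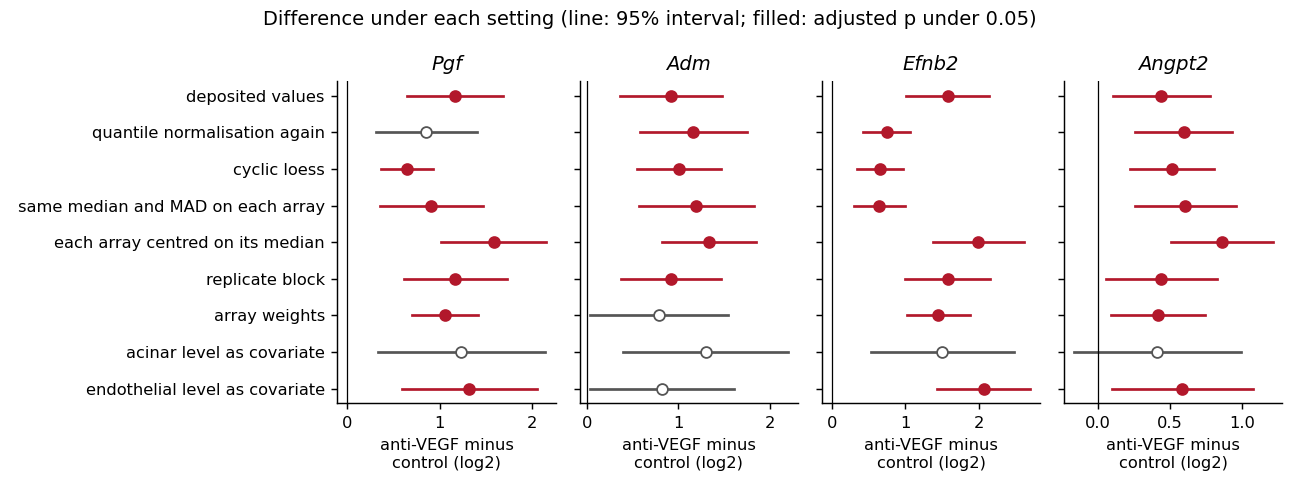
Difference between anti-VEGF and control arrays (log2, horizontal axes, each panel with its own range) of each ligand under 9 settings, with 95% confidence intervals, in red and filled where the adjusted p from limma was under 0.05. All 36 points lie above 0, and the open points are those of *Pgf* after quantile normalisation (0.86), of *Adm* with array weights (0.79) and with the endothelial level (0.82), and of all 4 ligands with the acinar level.

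Of 28 further measured angiogenic factors 10 were called higher and 5 lower, beside 19.1% and 46.6% of all genes, with a median difference of 0.33. After quantile normalisation 2 were called higher and 1 lower, shares close to the 7.47% and 4.45% of all genes. *Ereg*, which encodes the EGF receptor ligand epiregulin, rose by 1.36 (adjusted p = 0.00105 from limma), with 6.77 to 7.37 on the anti-VEGF arrays and 5.46 to 6.05 on the control arrays, and by 0.97 after quantile normalisation (0.0245). *Pdgfc*, a platelet-derived growth factor, rose by 1.29 and *Stc1*, which encodes the secreted glycoprotein stanniocalcin, by 1.49, while *Lep*, the leptin gene, fell by 0.82 (adjusted p = 0.00617, 0.00746 and 0.0117 from limma). *Pdgfc*, *Stc1* and *Lep* did not pass after quantile normalisation (1.17, 0.74 and -0.17), and *Stc1* had -0.30 with a common median and MAD on each array. Of 16 measured angiogenesis inhibitors 8 were called higher and 2 lower on the deposited scale, beside 19.1% and 46.6% of all genes. After quantile normalisation limma called 0 in either direction (4 higher and 0 lower at an unadjusted p under 0.05), with a median difference of -0.034. *Hrg*, which encodes a plasma glycoprotein, fell by 1.23 and *Tnmd*, the tenomodulin gene, fell by 1.25 (adjusted p = 0.000937 and 0.00185 from limma), with -0.036 and -0.20 after quantile normalisation (0.910 and 0.428) and, for *Hrg*, 0.26 with a common median and MAD on each array. Among those called higher with the smallest p were the semaphorin gene *Sema3e* (1.31), the receptor tyrosine kinase inhibitor *Spry2* (0.92) and the platelet chemokine gene *Pf4* (1.15), whose quantile-normalised differences of 0.44, 0.36 and 0.72 did not pass.

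*Adm* and *Pgf* were 2 of the 19 measured genes on a list of HIF-induced genes. Of the 17 others 14 were called higher and 1 lower, with a median difference of 0.87. Of all genes 19.1% were called higher, and of those in the highest tertile 51.3%, with a median of 0.60. Over the whole list 16 were called higher and 1 lower, and after quantile normalisation 6 and 0, beside 7.47% of all genes called higher, with a median of 0.52 beside -0.028 over all genes. *Kdm3a*, a histone demethylase, had 7.22 to 7.31 on the anti-VEGF arrays and 5.21 to 5.96 on the control arrays, a difference of 1.69 on the deposited scale (adjusted p = 0.000656 from limma) and 1.36 after quantile normalisation (0.0143). The collagen-modifying enzyme gene *Plod2* (1.54 and 1.05) and the protein-folding oxidase gene *Ero1a* (1.89 and 1.07) also passed on both scales, whereas the glycolytic gene *Pgk1* (1.20 and 0.52) passed on the first only and had -0.998 with a common median and MAD on each array. *Epo*, the erythropoietin gene, fell by 0.49 (adjusted p = 0.0410 from limma), a call that, of the 8 fits without 1 array, only those without anti-VEGF array 1 or control array 4 kept, and that was lost after quantile normalisation (-0.15, 0.694).

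**Figure D5:**
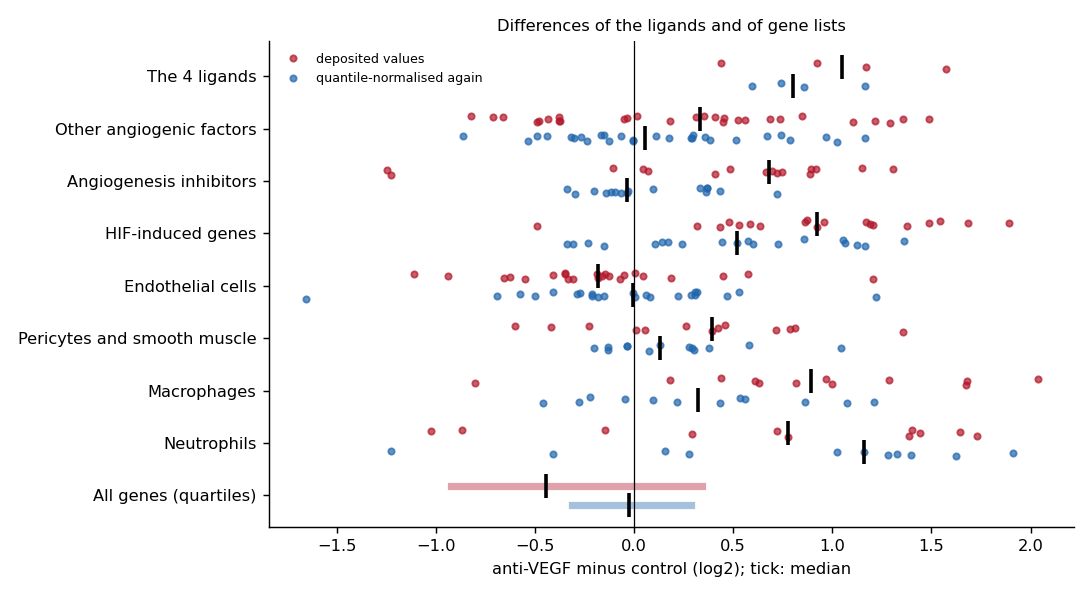
Difference between anti-VEGF and control arrays (log2, horizontal axis) of the 4 ligands and of each measured gene of 7 lists (points), with the median as a tick, for the deposited values (red) and after quantile normalisation (blue), and with the quartiles of all genes at the bottom. The angiogenesis inhibitors have their red median at 0.68 and their blue median at -0.034, and the HIF-induced genes theirs at 0.92 and 0.52.

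The genes named as most like each ligand within the groups differed between the ligands, which does not show that the ligands varied separately. The likeness was measured as Pearson's r between the deviations of 2 genes from their group means over the 8 arrays. It is given as a description, since the arrays share their overall distribution with all genes. Between the ligands r was 0.784 for *Pgf* and *Efnb2*, 0.647 for *Efnb2* and *Angpt2* and 0.412 for *Pgf* and *Adm*. It was 0.233 for *Pgf* and *Angpt2*, 0.209 for *Adm* and *Efnb2* and -0.521 for *Adm* and *Angpt2*. *Pgf* was most like *Maoa* (r = 0.998), *Parn* (0.997) and *Erlin2* (0.995), and *Efnb2* most like *Micu2* (0.990), *Slc25a5* (0.989) and *Scamp2* (0.983). For *Pgf* 878 genes and for *Efnb2* 606 genes had an r above 0.9. *Adm* was most like *Galnt15* (0.958), *Cypt2* (0.942) and *Nudt13* (0.935), and *Angpt2* most like *Xkr9* (0.965), *Ndufb5* (0.948) and *Dhrs7b* (0.945), with 6 and 5 genes above 0.9. Likeness within the groups leaves out the treatment difference, which was -0.90 for *Xkr9* (adjusted p = 0.00162 from limma) and -0.38 for *Cypt2* (0.0751). The other like genes named had positive differences.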

How the data were processed

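Total RNA of 8 HM-1 tumours was hybridised to Affymetrix mouse transcriptome arrays. The authors deposited log2 expression after RMA, which corrects background, quantile-normalises probes and summarises probe sets, and the submitters' processing notes also name Transcriptome Analysis Console. The deposited table held 13266 probe sets, and how they were chosen is not given in the sources used here. Platform annotation gave 11743 of them 1 symbol, 800 several and 723 none, and 11595 were found in RefSeq. Each gene was represented by its brightest probe set among those with 1 symbol, and genes without one were not analysed here.

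The linear model of limma 3.58.1 (lmFit, then eBayes, in R 4.3.3) held treatment alone, and p-values were adjusted by Benjamini-Hochberg over 11667 genes, with a threshold of 0.05. No filter on dim genes was applied. The exact permutation test ran over all 70 assignments of the arrays (scipy 1.17.1). The scripts were tested on simulated data. The ligands and gene lists were chosen with earlier results of these data known. Named genes were the ligands, their measured relatives and receptors, in 3 lists the 4 genes or fewer with the smallest p in each direction, and the 3 genes most like each ligand; the text names part of these, and the 3 endothelial genes with values were picked after these were seen. The 20 alternatives were 4 rescalings, 2 filters on dim genes, the mean of probe sets, a replicate block, eBayes with trend and robust, array weights, 2 covariates and leaving out each of 8 arrays. Same-numbered arrays deviated together with r of 0.190, 0.126, -0.0367 and 0.163, so the numbers were not taken as pairs. Arrays have no read depth, and their number limits the precision. The labels and the methods text differ on the day of the first injection. The methods text also gives treatment over a fixed number of days, not up to a tumour size. The labels' account is given here.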

Additional observations from a re-analysis of the deposited data

Results flagged for a closer look

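In 9 of 114 checks, a gene or list mean of 1 array lay outside the other 3 of its group by Dixon's criterion for 4 samples. Chance marks about 1 in 20 such groups. On control array 3, which also had the lowest value of each of the 4 ligands, *Efna1* was 4.99 (other controls 6.10 to 6.25), *Tie1* 5.14 (5.77 to 5.88), the mean of the other angiogenic factors 5.93 (6.30 to 6.33) and that of the angiogenesis inhibitors 5.91 (6.59 to 6.71). On control array 1 *Angpt4* was 4.91 (5.28 to 5.35). On anti-VEGF array 1 the fibroblast mean was 6.68 (other anti-VEGF arrays 7.23 to 7.34), the mean of epithelial and HM-1 tumour cell markers 7.45 (7.08 to 7.11), that of skeletal muscle 4.87 (4.63 to 4.65) and that of olfactory and vomeronasal receptors 2.61 (2.33 to 2.38). None of the 4 ligands was marked in either group.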

How the results depend on the processing

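The 4 ligands were higher with anti-VEGF antibody under each of the 20 alternatives, and passed at an adjusted p under 0.05 from limma in 18 (*Pgf*), 17 (*Adm*), 19 (*Efnb2*) and 16 (*Angpt2*) of them. Quantile normalisation ended the call of *Pgf* (0.86, adjusted p = 0.0513), and array weights (0.79, 0.0570) and the endothelial level (0.82, 0.0727) that of *Adm*. With the acinar level as a covariate *Pgf* had 1.24 (0.0949), *Adm* 1.30 (0.0928), *Efnb2* 1.50 (0.0895) and *Angpt2* 0.41 (0.25). Leaving out 1 array gave 0.95 to 1.35 for *Pgf*, 0.78 to 1.08 for *Adm*, 1.33 to 1.69 for *Efnb2* and 0.39 to 0.49 for *Angpt2*, whose call was lost without anti-VEGF array 2, 3 or 4. The cause was not tested.

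With the replicate number as a block the differences stayed 1.17 (*Pgf*, adjusted p = 0.00549), 0.92 (*Adm*, 0.0112), 1.57 (*Efnb2*, 0.00323) and 0.44 (*Angpt2*, 0.0458), and 2159 genes were called higher and 5422 lower. Same-numbered arrays share only a number, and not every array correlated best with its own.

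Genes called higher numbered 2232, which is 29.1% of all calls, with 5437 lower. They numbered 872 and 519 after quantile normalisation (62.7% higher), 3735 and 2787 after centring each array on its median (57.3%), 1339 and 1110 after cyclic loess (54.7%), 706 and 549 with a common median and MAD (56.3%), and 0 and 0 with the acinar level, where 1576 and 2566 had an unadjusted p under 0.05. Without the lowest tertile by level 2159 were higher and 1870 lower, and without genes below the median level 2049 and 695. In the lowest tertile itself 3510 of 3889 genes (90.3%) had been called lower on the deposited scale and 2 higher. Leaving out 1 array gave 1697 to 2419 higher and 4273 to 5799 lower. The median difference of all genes, -0.44 as deposited, was -0.028, -0.027, -0.018 and 0.034 under these 4 rescalings, and relative to the deposited median the ligands were higher by 1.61 (*Pgf*), 1.37 (*Adm*), 2.02 (*Efnb2*) and 0.88 (*Angpt2*). The deposited median differed with level, at 0.60 in the highest tertile and -1.07 in the lowest. Relative to genes of their own level the ligands were higher by only 0.63, 1.10, 0.60 and 0.61, in the same order.

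The sign turned for *Kdr* (-0.19 as deposited) after quantile normalisation (0.083), centring (0.23), cyclic loess (0.057), a common MAD (0.079) and with the endothelial level (0.20). It turned for *Ephb4* after quantile normalisation (-0.22), cyclic loess (-0.26) and a common MAD (-0.22), and for *Angpt4* under those 3 (0.0049, 0.015 and 0.019) and centring (0.22). *Tie1* had -0.0062 after quantile normalisation, -0.095 after cyclic loess, -0.095 with array weights and -0.13 to 0.12 leaving out 1 array. Centring gave *Efnb1* 0.28 and *Ephb3* 0.11, the endothelial level gave *Vegfd* -0.037, and a common MAD gave *Stc1* -0.30, *Pgk1* -0.998 and *Hrg* 0.26. For the genes named beside the ligands 523 results kept their side of the threshold and direction, 114 lost the call and 12 gained it. Signal over background of the dim genes limits what the arrays can show.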
